A study of Mus musculus with 12 samples.

Results

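The 10 immediate early genes described here were followed in 2 cell types of mice with ischemia/reperfusion injury (IRI) of the kidneys, with and without glutamine: Fos, Fosb, Jun, Junb, Atf3, Egr1, Nr4a1, Ier2, Ier3 and Dusp1. They were taken by gene symbol from the table of renal tubular epithelial cells (TECs), which holds 50433 gene rows, and from the table of blood neutrophils (polymorphonuclear leukocytes, PMN), which holds 50434. All 10 were found in both tables and all 10 passed the filter on low counts, among 14734 genes tested in TECs and 10130 in PMN. The filter used no gene's difference between treatments, and all 10 genes had counts in every library.

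In both cell types the mice were wild-type C57BL/6J males of 8 to 12 weeks whose renal pedicles were clamped on both sides and then released. One group received glutamine intravenously after reperfusion and the other received saline as vehicle, and RNA was taken 24 hours after the injury, so that vehicle mice carried the same injury and no uninjured mice enter these comparisons. TECs were sorted from the kidney as CD45- Prominin-1+ cells, and PMN came from peripheral blood. Each of the 4 groups had 3 libraries, numbered 1, 2 and 3 for TEC glutamine and 3, 4 and 5 for TEC vehicle as in the labels, and 1, 2 and 3 in each PMN group in the order of deposition. Total counts were 5397370 to 10223461 per TEC library, with glutamine replicate 2 the shallowest, and 20225246 to 21878446 per PMN library. The labels do not say whether every library came from its own mouse, and p-values measure the spread between these libraries.

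Immediate early genes are transcribed within minutes of a stimulus from factors already present in the cell, without new protein synthesis. Many encode transcription factors, such as the FOS and JUN proteins, which pair to form the AP-1 complex, and others encode proteins that end the response, such as the phosphatase DUSP1, which switches off the stress kinases p38 and JNK. In the kidney their induction is an early sign of ischemia, and in leukocytes they respond to activation. They also respond to handling and enzymatic or mechanical isolation of cells, which is not limited to leukocytes. The TECs here were sorted from kidney tissue, and the part of isolation in the levels of either cell type was not tested.

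The markers of the labelled cell types were present, and so were markers of other cells. In TEC libraries the sort marker Prom1 lay between 64.6 and 83.5 CPM (counts scaled to a common library size of 1e6) and the proximal tubule transporter Slc34a1 between 1298 and 2711 CPM, while Ptprc, the gene of CD45, was at most 2.74 CPM and the 4 endothelial markers summed to between 199 and 327 CPM. The 7 neutrophil markers tested in TECs summed to between 103 and 253 CPM, and the 4 erythroid and platelet markers to between 309 and 2599 CPM. In PMN libraries the neutrophil marker S100a8 lay between 6607 and 28925 CPM and Ly6g between 49.2 and 178 CPM, and the 10 neutrophil markers tested there summed to between 23971 and 72659 CPM. The 8 macrophage and dendritic cell markers summed to between 6736 and 12468 CPM in PMN libraries, of which the complement gene C1qa made up between 287 and 2572 CPM. Vehicle replicate 1 of PMN held 1025 CPM of the kidney gene Umod, against at most 33.4 CPM in the other PMN libraries, and vehicle replicate 2 held 619 CPM of the endothelial gene Kdr, which had 0 counts in the other 5. The lymphocyte markers Cd3e and Nkg7 had 0 counts in every PMN library. In bulk samples of this kind, fewer or more cells of a type and less or more RNA per cell cannot be told apart.

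For 3 genes whose glutamine and vehicle libraries did not overlap in one of the cell types, the promoter is given here, from 250 bases before to 50 bases after the RefSeq start site in GRCm38.p6. Capitals mark TGACG, the core of the cAMP response element that CREB and ATF proteins bind, on either strand, and the TATA box letters TATAAA. Fos lies at chr12:85473640-85473939 on the plus strand, Dusp1 at chr17:26508423-26508722 on the minus strand and Ier3 at chr17:35821463-35821762 on the plus strand, each printed 5′ to 3′ along the gene.
Fos: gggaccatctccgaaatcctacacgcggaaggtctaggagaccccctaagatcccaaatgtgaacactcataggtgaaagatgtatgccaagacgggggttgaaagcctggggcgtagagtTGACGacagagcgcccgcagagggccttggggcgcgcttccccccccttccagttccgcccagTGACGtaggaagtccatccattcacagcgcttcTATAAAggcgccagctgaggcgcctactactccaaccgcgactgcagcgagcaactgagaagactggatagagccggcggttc
Dusp1: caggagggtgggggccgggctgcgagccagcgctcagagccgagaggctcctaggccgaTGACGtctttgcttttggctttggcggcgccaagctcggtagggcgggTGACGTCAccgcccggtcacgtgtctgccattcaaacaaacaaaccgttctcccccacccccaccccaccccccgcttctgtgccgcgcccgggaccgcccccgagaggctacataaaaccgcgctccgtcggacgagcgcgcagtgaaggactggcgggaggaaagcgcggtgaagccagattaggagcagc
Ier3: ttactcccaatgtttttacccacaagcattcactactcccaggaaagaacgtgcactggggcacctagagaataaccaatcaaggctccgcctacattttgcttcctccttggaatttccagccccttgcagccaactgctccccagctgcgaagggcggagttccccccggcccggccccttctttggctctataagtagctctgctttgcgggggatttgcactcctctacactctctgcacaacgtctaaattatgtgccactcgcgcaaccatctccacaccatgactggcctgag
In Fos the letters TGACG began at positions -129 and -66 and TATAAA at -33, counted from the start site as 0. In Dusp1 TGACG was found 3 times, and the matches at -143 and -140 lie on opposite strands and overlap to form the palindrome TGACGTCA. Ier3 held neither motif in this window. RefSeq promoters were matched by symbol for 8 of the 10 genes, all except Egr1 and Ier2. The letters TGACG on either strand were in 6 of these 8 promoters (Fos, Fosb, Junb, Atf3, Nr4a1 and Dusp1) and in 20.8% of all 32851 promoters of the same length. The AP-1 motif TGANTCA was in 0 of the 8 and in 7.81% of all promoters, the CArG box, which binds serum response factor, in 0 of the 8 and in 1.63%, and TATAAA in 2 of the 8 and in 13.6%. A match describes letters in a window of 300 bases and not a bound site.

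The first question was how glutamine-treated TECs differed from vehicle-treated TECs. Of the 10 genes, 6 had lower and 4 had higher estimates with glutamine (8 and 2 with library totals alone, where Nr4a1 and Dusp1 turned), where 49.4% of all tested genes were lower and 50.6% higher, and the median log2 fold change of the 10 was -0.16, against 0.0069 over all tested genes. None of the 10 passed edgeR's quasi-likelihood test at an adjusted p below 0.05, where 0% of the 14734 genes did, and 0 of the 10 had an unadjusted p below 0.05, where 12.7% of all genes did, 5.51% lower and 7.23% higher. DESeq2 also called 0 of the 10, with 1.11% of all genes called, and limma-voom called 0 at an adjusted p below 0.05 and 1, Ier3, at an unadjusted p below 0.05. Only Ier3 had groups that did not overlap, with higher values under glutamine, where 9.01% of all genes were separated in that direction, 9.81% in the other and 18.8% in either. Glutamine replicate 1 was the lowest of the 6 libraries for 8 of the 10 genes (all except Ier3 and Nr4a1), and without it 4 of the 10 genes were lower and the median was 0.023. Without glutamine replicate 2 and without glutamine replicate 3, 8 of the 10 were lower, with medians of -0.20 and -0.26. The 10 genes are not independent observations. Pearson's r between pairs of them ranged from -0.72 (Jun and Ier3) to 0.97 (Fosb and Egr1) over the 6 TEC libraries.

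Among the AP-1 genes, Fos, whose product must pair with a JUN protein to bind DNA, showed the lowest estimate in TECs. Its level was 169, 299 and 359 CPM in glutamine replicates 1, 2 and 3 and 388, 393 and 290.0 CPM in vehicle replicates 3, 4 and 5. Glutamine replicate 1 stood lowest and the other glutamine libraries lay within the range of the vehicle ones. The log2 fold change was -0.37 (standard error 0.27, 95% interval -0.97 to 0.23, edgeR adjusted p = 0.597), and it ranged from -0.61 without glutamine replicate 3 to -0.12 without glutamine replicate 1. Fosb, its close relative, had 83.2, 144 and 130.0 CPM with glutamine and 163, 147 and 111 CPM with vehicle. The groups overlapped, with a log2 fold change of -0.24 (interval -0.79 to 0.31, edgeR adjusted p = 0.716) that lay between -0.40 without glutamine replicate 2 and -0.033 without glutamine replicate 1. Jun, the AP-1 subunit that JNK phosphorylates, had 303, 414 and 531 CPM with glutamine and 463, 545 and 518 CPM with vehicle. Here one glutamine library reached the vehicle range and the others lay below it, and the log2 fold change was -0.29 (interval -0.79 to 0.21, edgeR adjusted p = 0.62), ranging from -0.51 without glutamine replicate 3 (unadjusted p = 0.0429, edgeR adjusted p = 0.353) to -0.11 without glutamine replicate 1. Junb, which can oppose Jun at shared targets, had 82.6, 119 and 142 CPM with glutamine and 88.2, 119 and 94.2 CPM with vehicle. Its glutamine libraries held both the lowest and the highest value, and its log2 fold change was 0.19 (interval -0.34 to 0.72, edgeR adjusted p = 0.767), from 0.0038 without glutamine replicate 3 to 0.38 without glutamine replicate 1.

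The other transcription factors differed little in TECs relative to their spread. Atf3, a stress-induced member of the ATF/CREB family, had 57.8, 105 and 105 CPM with glutamine and 112, 95.2 and 101 CPM with vehicle, and its log2 fold change was -0.21 (interval -0.76 to 0.35, edgeR adjusted p = 0.759). Apart from glutamine replicate 1, all Atf3 values lay within the range of the vehicle libraries, and without that library the estimate was 0.029. Egr1, a zinc finger factor, had 186, 244 and 219 CPM with glutamine and 266, 261 and 210 CPM with vehicle. The highest glutamine value was below the vehicle libraries 3 and 4 but above vehicle replicate 5, and the log2 fold change was -0.18 (interval -0.62 to 0.26, edgeR adjusted p = 0.725), from -0.29 without vehicle replicate 5 to -0.083 without glutamine replicate 1. Nr4a1, an orphan nuclear receptor, varied among the vehicle libraries, with 24.6, 34.8 and 63.0 CPM, against 26.1, 52.6 and 49.2 CPM with glutamine. Its log2 fold change of 0.062 had an interval from -0.74 to 0.86 (edgeR adjusted p = 0.96), and it was -0.20 without vehicle replicate 3 and 0.51 without vehicle replicate 5.

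Of the remaining genes in TECs, Ier3, which encodes a stress-inducible protein that acts on cell survival, was the one gene with separated groups. It had 267, 302 and 226 CPM with glutamine and 222, 180 and 191 CPM with vehicle, a gap of 4.56 CPM between the lowest glutamine and the highest vehicle library. The log2 fold change was 0.42, a 1.34-fold higher level (standard error 0.20, interval -0.012 to 0.86, unadjusted p = 0.0556, edgeR adjusted p = 0.402). Ier2, which encodes a nuclear protein, had 79.5, 97.6 and 125 CPM with glutamine and 110 and 123 CPM in vehicle replicates 3 and 4 and 96.9 CPM in vehicle replicate 5. The groups overlapped over most of their range, with a log2 fold change of -0.13 (interval -0.62 to 0.36, edgeR adjusted p = 0.838) that became 0.016 without glutamine replicate 1. Dusp1 had 68.5, 148 and 180 CPM with glutamine and 114, 146 and 115 CPM with vehicle. Its glutamine libraries again held the lowest and the highest value, and its log2 fold change was 0.084 (interval -0.60 to 0.77, edgeR adjusted p = 0.933), from -0.21 without glutamine replicate 3 to 0.40 without glutamine replicate 1.

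**Figure D1:**
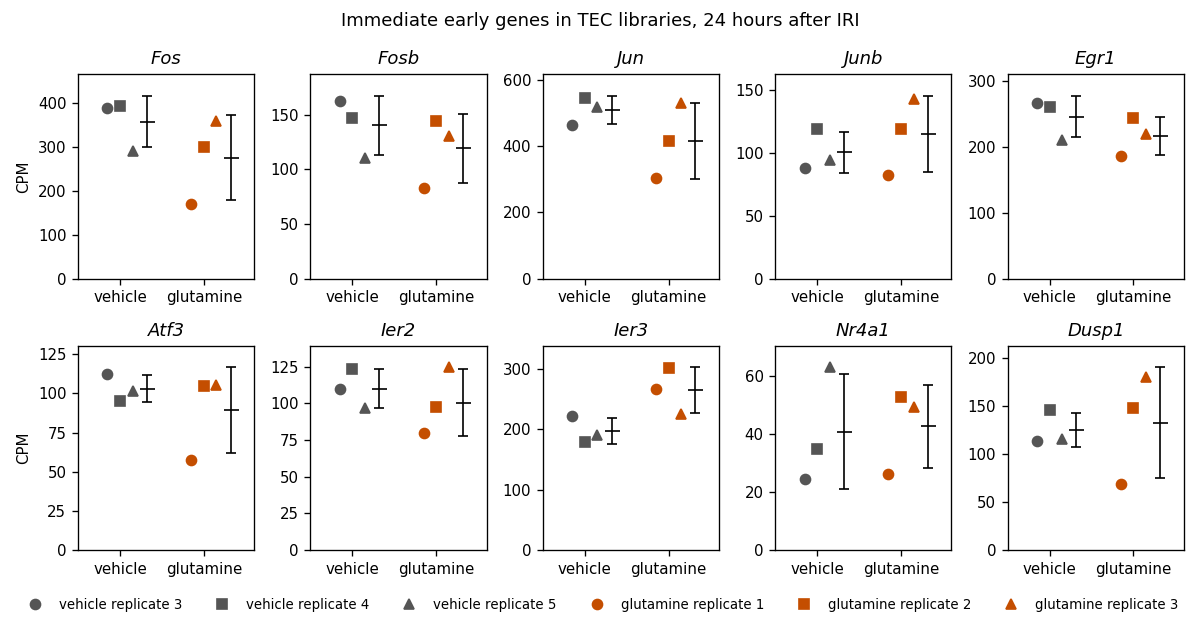
Level of each gene in CPM (vertical axes, starting at 0) in the 6 TEC libraries, with vehicle in gray and glutamine in orange, marker shape for the replicate, and a bar for the mean ± SD of 3 libraries. Glutamine replicate 1 (orange circle) is the lowest point in 8 of the 10 panels, and in the Ier3 panel the 3 glutamine points lie above the 3 vehicle points.

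Of the tubular injury genes, Havcr1 was separated between the TEC groups and Lcn2 overlapped. Havcr1, the gene of kidney injury molecule 1, had 94.1, 49.4 and 26.2 CPM with glutamine and 793, 541 and 106 CPM with vehicle (log2 fold change -3.08, edgeR adjusted p = 0.178). Lcn2, the gene of NGAL, had 1729, 1551 and 1052 CPM with glutamine and 3599, 1493 and 695 CPM with vehicle (log2 fold change -0.42, edgeR adjusted p = 0.727). Ptprc, at 2.28, 1.81 and 2.74 CPM with glutamine and 1.48, 1.52 and 0.102 CPM with vehicle, was separated at a level close to 0. Also separated and higher with glutamine were the macrophage gene Lyz2 (3.95 to 12.5 against 1.121 to 2.56 CPM, log2 fold change 1.95, edgeR adjusted p = 0.252) and Slc12a1 of the thick ascending limb (53.0 to 143 against 38.0 to 45.0 CPM, log2 fold change 1.30, edgeR adjusted p = 0.208). Of the 12 tubule markers 10 were higher, and 3 had an unadjusted p below 0.05, Havcr1 lower and Slc12a1 and Slc12a3 higher, where 12.7% of all tested genes had one. Slc12a3, the transporter of the distal convoluted tubule, had overlapping groups (log2 fold change 0.89, edgeR adjusted p = 0.359). Of the 7 macrophage and dendritic cell markers tested 5 were higher, and 1, Lyz2, had an unadjusted p below 0.05. Summed over the genes tested, the 12 tubule markers had 5114 to 8591 CPM with vehicle and 6029 to 7487 CPM with glutamine, and the 7 macrophage and dendritic cell markers had 42.4 to 83.0 and 58.4 to 129.8 CPM. The part of injured and of other cells in the levels of the 10 genes was not tested.

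The second question was the same comparison in PMN. All 10 genes had higher estimates with glutamine, where 50% of all tested genes were higher, and the median log2 fold change was 0.38, against 0.00020 over all tested genes. The 10 share the same libraries and are not 10 independent observations. Pearson's r between pairs of them ranged from -0.61 (Fosb and Atf3) to 0.95 (Fos and Dusp1) over the 6 PMN libraries. By edgeR, 0 of the 10 had an adjusted p below 0.05, where 0% of the 10130 genes did, and 1, Fos, had an unadjusted p below 0.05 and was higher, where 2.04% of all genes did so, 1.37% were lower and 3.42% in either direction. DESeq2 called 0 of the 10 at an adjusted p below 0.05, with 2.72% of all genes called, and none at an unadjusted p below 0.05, while limma-voom had 2 at an unadjusted p below 0.05, Fos and Dusp1, and 0 at an adjusted one. The groups were separated for 3 of the 10, Fos, Ier2 and Dusp1, all higher with glutamine, where 5.87% of all genes were separated in that direction, 4.63% in the other and 10.5% in either. An exact permutation test of 3 libraries against 3 cannot give a two-sided p below 0.1. Together the 10 genes took 1.48%, 1.76% and 2.08% of all counts in glutamine replicates 1, 2 and 3 and 1.35%, 1.27% and 1.42% in vehicle replicates 1, 2 and 3.

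Fos had the smallest unadjusted p of the 10 in PMN. Its level was 2616, 3190.3 and 4595 CPM in the glutamine libraries and 1830.3, 1844 and 2289 CPM in the vehicle libraries. Every glutamine library lay above every vehicle library, with replicate 3 of each group the highest of its group. The log2 fold change was 0.80, a 1.74-fold higher level (standard error 0.25, 95% interval 0.22 to 1.38, unadjusted p = 0.0139, edgeR adjusted p = 0.958). Its lowest estimate with 1 library left out was 0.54, without glutamine replicate 3. With DESeq2 it was 0.73, at an unadjusted p of 0.106. For the other 9 genes in PMN the edgeR adjusted p was 0.99996.

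The other AP-1 subunits overlapped between the groups. Fosb had 100.4, 51.1 and 163 CPM with glutamine and 132, 105 and 41.2 CPM with vehicle, and both groups covered nearly the same range. Its log2 fold change of 0.18 had an interval from -1.48 to 1.83, and it was -0.30 without glutamine replicate 3 and -0.19 without vehicle replicate 3. Jun had 268, 756 and 1096 CPM with glutamine and 723, 488 and 400.4 CPM with vehicle. Its lowest and its highest library were both glutamine libraries, and its log2 fold change of 0.40 (interval -0.84 to 1.63) became -0.062 without glutamine replicate 3. Junb varied less, with 2609, 2822 and 3898 CPM with glutamine and 2617, 2094 and 2366 CPM with vehicle. Only vehicle replicate 1 overlapped with the glutamine group, and only with its replicate 1, and the log2 fold change was 0.40 (interval -0.094 to 0.89, unadjusted p = 0.0968), from 0.20 without glutamine replicate 3 to 0.49 without glutamine replicate 1.

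Atf3 had the largest estimate in PMN and a wide interval. It had 216, 274 and 152 CPM with glutamine and 60.3, 93.5 and 202 CPM with vehicle. Vehicle replicate 3 lay inside the glutamine range and the other vehicle libraries lay below it, and the log2 fold change was 0.85 (interval -0.49 to 2.20), ranging from 0.51 without vehicle replicate 1 to 1.47 without vehicle replicate 3. Egr1 had 1244, 637 and 831 CPM with glutamine and 1038, 616 and 545.7 CPM with vehicle. Replicate 1 was the highest of either group, the ranges overlapped, and the log2 fold change of 0.30 (interval -0.57 to 1.17) became -0.013 without glutamine replicate 1. Nr4a1 was even across the glutamine libraries, with 1153, 1109.8 and 1047 CPM, while the vehicle libraries held 1241, 665 and 1251 CPM. Vehicle replicate 2 alone lay below the glutamine group, and the log2 fold change of 0.068 (interval -0.61 to 0.75) was -0.18 without it.

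Ier2 and Dusp1 were the other genes with separated groups in PMN. Ier2 had 802, 899 and 572 CPM with glutamine and 368, 566 and 539 CPM with vehicle, a log2 fold change of 0.63 (interval -0.084 to 1.34, unadjusted p = 0.0753). The nearest libraries of the Ier2 groups, glutamine replicate 3 and vehicle replicate 2, were 5.34 CPM apart. Dusp1 had 5149, 5634 and 7235 CPM with glutamine and 4214, 4929.7 and 4859.5 CPM with vehicle. A gap of 219 CPM parted the groups and glutamine replicate 3 stood highest, as for Fos and Junb, and the log2 fold change was 0.36 (interval -0.041 to 0.77, unadjusted p = 0.0709), from 0.20 without glutamine replicate 3 to 0.44 without glutamine replicate 1. Ier3 had 2313, 1831 and 1523 CPM with glutamine and 1711.5, 1257 and 1510.4 CPM with vehicle. Here glutamine replicate 3 lay within the vehicle range, and the log2 fold change was 0.34 (interval -0.20 to 0.88), from 0.15 without glutamine replicate 1 to 0.47 without glutamine replicate 3.

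**Figure D2:**
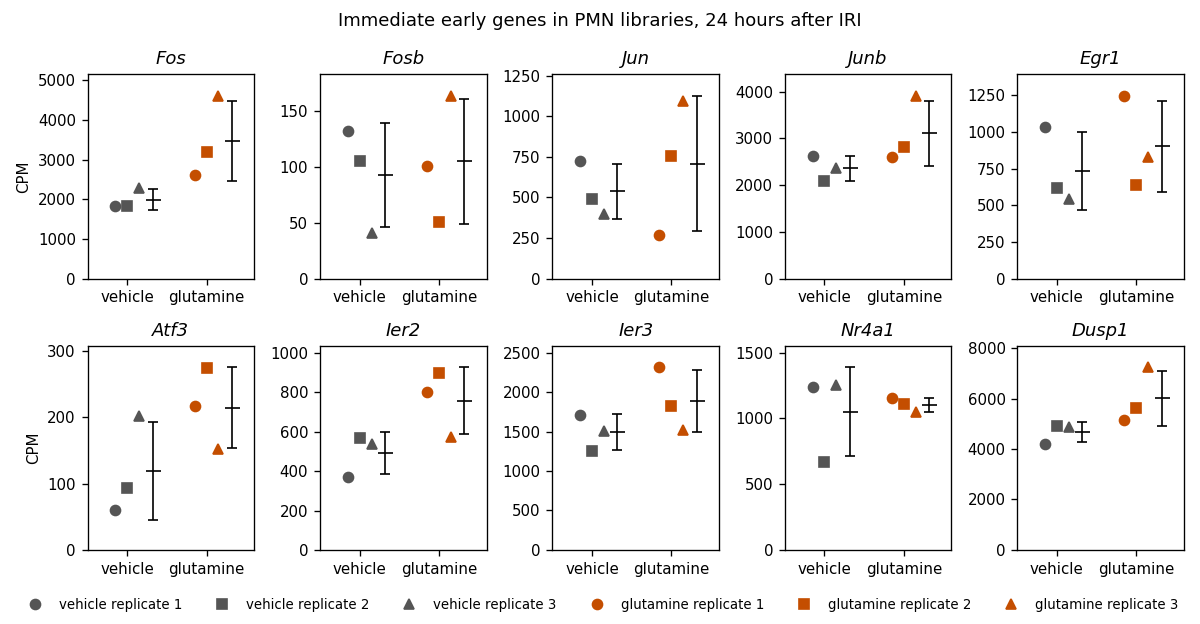
Level of each gene in CPM (vertical axes, starting at 0) in the 6 PMN libraries, drawn as in the TEC plot, with a bar for the mean ± SD of 3 libraries. The 3 orange points lie above the 3 gray points for Fos, Ier2 and Dusp1, while the groups overlap for the other 7 genes.

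Markers of the cells in the PMN libraries are given beside these genes. Ptprc, carried by all leukocytes, had 754, 819 and 1150.5 CPM with glutamine and 564, 317 and 569 CPM with vehicle, separated like Fos (log2 fold change 0.91, unadjusted p = 0.028, edgeR adjusted p = 0.99996). C1qa had 525, 996 and 2572 CPM with glutamine and 287, 509 and 1122 CPM with vehicle, and ranked the libraries of each group in the same order as Fos. Lyz2, of the same list, had a log2 fold change of -0.29, with overlapping groups. The neutrophil markers did not share one order. S100a8, with 28925, 14649 and 6607 CPM with glutamine and 18870.4, 12595 and 25717 CPM with vehicle, ranked the glutamine libraries in the opposite order to Fos, as did S100a9, Ly6g, Retnlg and Elane. Csf3r, the receptor of the growth factor G-CSF, was highest in glutamine replicate 3, as Fos was, with 1213, 993 and 1789.9 CPM with glutamine and 1174, 577 and 895 CPM with vehicle, and so was the integrin gene Itgam, with 1349.7, 1019 and 1935 CPM with glutamine and 1924, 931 and 967 CPM with vehicle. Of the macrophage and dendritic cell markers, 7 of 8 had higher estimates with glutamine, with a median log2 fold change of 0.47, and of the 10 neutrophil markers tested 7 had, with a median of 0.20. None of either list passed an adjusted p below 0.05 by edgeR, and at an unadjusted p below 0.05 there was 1 of the 18 tested, the neutrophil protease gene Mmp9, where 3.42% of all tested genes were. Both endothelial markers tested, Pecam1 and Cdh5, had lower estimates with glutamine, and for Cdh5 that direction was fixed by the filter, as given next. The lower estimate of Pecam1 came from vehicle replicate 2 alone, which held 249.7 CPM. In vehicle replicates 1 and 3 Pecam1 lay below every glutamine library. Cdh5, the gene of VE-cadherin, had 12, 0 and 2 counts in the glutamine libraries and 333, 4912 and 40 counts in the vehicle libraries, so that it passed the filter on low counts through the vehicle group alone, and its test is not given. The 10 genes were not measured cell type by cell type, and the part of cell composition in their levels was not tested. Without vehicle replicate 1, the library with Umod, all 10 genes were still higher with glutamine and Fos was 0.71, and without vehicle replicate 2, the library with Kdr, 9 were and Fos was 0.74. Without glutamine replicate 3, the library with the most C1qa, 8 were higher, and Jun and Fosb were not.

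**Figure D3:**
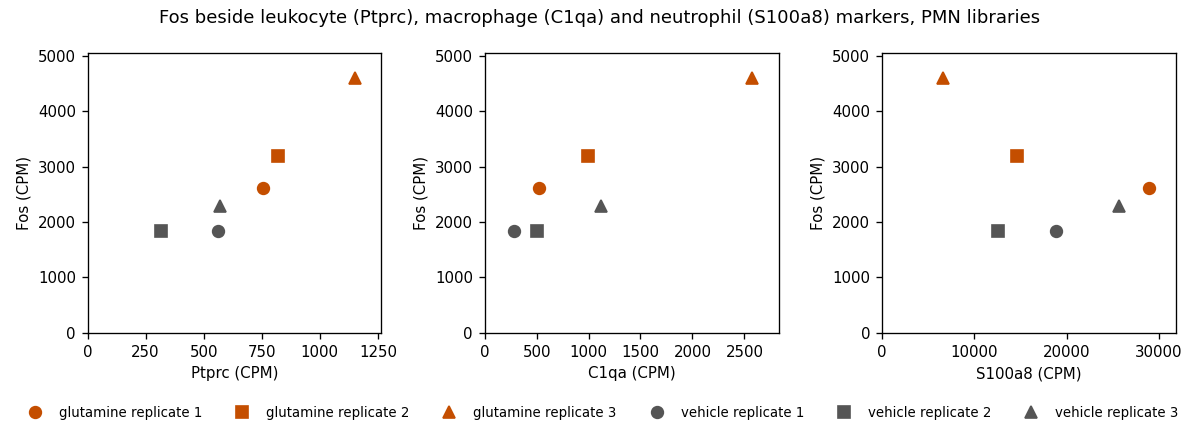
Fos in CPM (vertical axis) against the leukocyte gene Ptprc, the macrophage gene C1qa and the neutrophil gene S100a8 in CPM (horizontal axes), 1 point for each of the 6 PMN libraries. Glutamine libraries (orange) lie above and to the right of the vehicle libraries (gray) for Ptprc, overlap with them along C1qa, and glutamine replicate 3 has the most Fos and the least S100a8. Other neutrophil markers, which are not drawn, differ from S100a8: Csf3r and Itgam were highest in glutamine replicate 3.

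The third question was whether the direction differed between the cell types. With glutamine 6 genes were lower in TECs and higher in PMN (Fos, Fosb, Jun, Atf3, Egr1 and Ier2), and 4 were higher in both (Junb, Nr4a1, Ier3 and Dusp1). Single libraries turned the direction of Nr4a1, Dusp1, Atf3 and Ier2 in TECs and of Fosb, Jun, Egr1 and Nr4a1 in PMN. Among 8955 genes tested in both cell types, 23% were lower in TECs and higher in PMN, 26.3% higher in both, 27.2% lower in both and 23.5% higher in TECs and lower in PMN. The difference itself was tested as an interaction over all 12 libraries, in which a negative value means that the log2 fold change in TECs was below that in PMN. It was negative for 9 of the 10, all except Ier3 (for 8 with TMM within each cell type and for 10 with library totals alone), with a median of -0.51, against 0.057 over all 17082 genes. Without PMN glutamine replicate 3 that median was -0.27, against 0.19 over all genes, and without PMN vehicle replicate 1 it was -0.78, against -0.076. The 10 genes share the same 12 libraries, so that their directions are not independent. No gene of the 10 had an adjusted p below 0.05 by edgeR, where 0.0995% of all genes did, and DESeq2 called 0 of the 10, with 6.49% of all genes called. At an unadjusted p below 0.05 there was 1, Fos, by edgeR, where 14.1% of all genes were.

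For Fos the difference was -1.24 (standard error 0.41, 95% interval -2.13 to -0.34, unadjusted p = 0.0112, edgeR adjusted p = 0.296). It remained negative without each library in turn, from -1.50 to -0.99, with adjusted p-values between 0.179 and 0.503. The next largest estimates were -1.13 for Atf3 (interval -2.64 to 0.37), -0.83 for Ier2 (interval -1.73 to 0.076) and -0.74 for Jun (interval -2.09 to 0.62). Egr1 followed at -0.55, Fosb at -0.47, Dusp1 at -0.34 and Junb at -0.26, each with an interval that included 0. With 1 library left out at a time, Atf3 lay between -1.86 (without PMN vehicle replicate 3) and -0.83 (without PMN vehicle replicate 1), and Jun between -1.10 and -0.32 (without PMN glutamine replicates 1 and 3). Ier2 lay between -1.075 (without TEC glutamine replicate 3) and -0.66 (without PMN glutamine replicate 2). Egr1 lay between -0.97 and -0.21 (without PMN vehicle replicate 1 and glutamine replicate 1), and Fosb between -0.92 and -0.033 (without PMN vehicle replicate 1 and glutamine replicate 3). Without TEC glutamine replicates 3 and 1 in turn, Dusp1 was -0.67 and -0.053 and Junb -0.48 and -0.081. Nr4a1 at -0.058 and Ier3 at 0.017 lay near 0, with intervals from -1.25 to 1.13 and from -0.66 to 0.70.

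**Figure D4:**
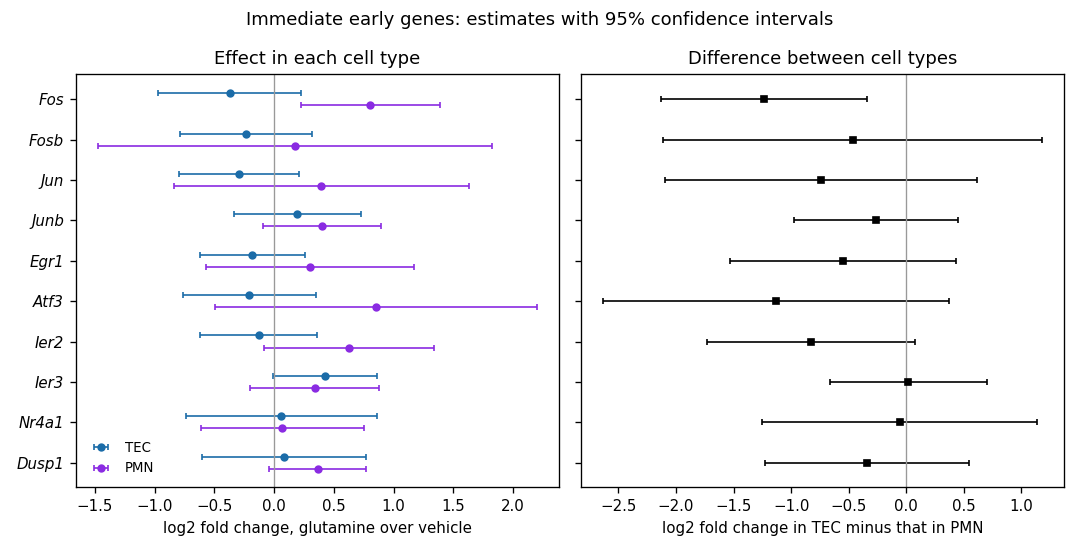
Left, log2 fold change of glutamine over vehicle with its 95% confidence interval in TECs (blue) and PMN (purple) for each of the 10 genes; right, the interaction estimate, the TEC change minus the PMN change. All PMN estimates lie right of 0, 6 TEC estimates lie left of it (8 with library totals alone), and in the right panel the interval of Fos alone does not include 0.

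The genes also differed in how strongly each cell type expressed them. The following levels are CPM per kilobase of the longest coding transcript in vehicle libraries, a scale on which genes can be compared, and they describe 2 tables from separate libraries without a test between them. In TECs the order was Ier3 at 175, Fos at 169, Jun at 160.0, Ier2 at 72.3, Dusp1 at 62.7, Junb at 55.5, Egr1 at 54.8, Atf3 at 51.9, Fosb at 37.1 and Nr4a1 at 16.0. Neighbors in this order that did not differ beyond the SD of their vehicle libraries were Ier3, Fos and Jun, and further down Dusp1, Junb, Egr1 and Atf3. In PMN the order was Dusp1 at 2346, Ier3 at 1320.1, Junb at 1304, Fos at 943, Nr4a1 at 412, Ier2 at 323, Jun at 168, Egr1 at 163, Atf3 at 59.7 and Fosb at 24.6. There the neighbors Ier3 and Junb, Nr4a1 and Ier2, Jun and Egr1, and Atf3 and Fosb did not differ beyond the SD of their vehicle libraries. Jun stood among the leading genes of TECs, whereas Dusp1 and Junb stood there in PMN. The 10 genes together made up 0.127% to 0.223% of the counts of a TEC library and 1.27% to 2.08% of a PMN library.

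In the GENCODE M21 annotation of GRCm38, 4 of the 10 genes overlap another gene, and the sources do not say that the counts used strand. Fos lies at chr12:85473890-85477273 with 4 exons, Fosb at chr7:19302696-19310051, Egr1 at chr18:34859823-34864984, Nr4a1 at chr15:101254269-101274795, Ier2 at chr8:84661331-84662852 and Ier3 at chr17:35821684-35822923, and none of them overlaps another annotated gene. Jun, a gene of 1 exon at chr4:95049034-95052222, overlaps its antisense RNA Junos, and Junb, also of 1 exon, at chr8:84974484-84978718, overlaps Prdx2 on the opposite strand. Atf3 at chr1:191170296-191218039 holds the small RNA gene Gm24748, and Dusp1 at chr17:26505590-26562128 overlaps Ergic1 and 3 short noncoding genes or pseudogenes. The positions given are of whole genes, and overlap of their exons was not tested. Where exons on opposite strands overlap, reads cannot be told apart without strand, and 2 of the genes that overlap Dusp1 lie on its own strand. The values of Jun, Junb, Atf3 and Dusp1 may be less certain on that account.

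Other genes of the same programs were counted from lists. Of 8 further AP-1 and small MAF genes tested in TECs, 2 were lower and 6 higher with glutamine, and 1, Mafk, had an unadjusted p below 0.05, a share near the 12.7% of all tested genes. Mafk, a small MAF partner of NRF2, had 16.6, 15.7 and 16.3 CPM with glutamine and 8.19, 9.23 and 11.5 CPM with vehicle (log2 fold change 0.75, edgeR adjusted p = 0.33). In PMN 3 of 10 were lower and 7 higher, and 0 had an unadjusted p below 0.05, where 3.42% of all tested PMN genes did.

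Of 44 other immediate early genes tested in TECs, 22 were lower and 22 higher, with a median log2 fold change of -0.027. Of the 44, 5 had an unadjusted p below 0.05, a share near the 12.7% of all tested TEC genes. Myc, the growth factor-responsive transcription factor, had a log2 fold change of -0.72 with overlapping groups. The others were higher, with log2 fold changes of 0.64 for Csrnp1, 0.59 for the repressor Bhlhe40, 1.32 for the repressor Nfil3 and 0.60 for Tiparp, a target of the aryl hydrocarbon receptor, and their edgeR adjusted p-values lay between 0.262 and 0.386 with that of Myc included. Among 43 tested in PMN, 18 were lower and 25 higher, with a median of 0.17, and 3 had an unadjusted p below 0.05, all higher with separated groups, where 2.04% of all PMN genes were higher at that threshold. Over the whole list 4 genes were separated and higher and 1 was separated and lower, where 5.87% and 4.63% of all genes were. Btg2, an antiproliferative gene, had 1471, 1415 and 2092 CPM with glutamine and 1027, 943 and 854 CPM with vehicle (log2 fold change 0.82, edgeR adjusted p = 0.856). Zfp36, whose product destabilizes cytokine mRNAs, had a log2 fold change of 0.50, and Socs3, an inhibitor of cytokine signaling, of 0.77, both with an edgeR adjusted p of 0.99996. None of either list passed an adjusted p below 0.05.

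Among the kinases and factors that act upstream of immediate early genes, 21 were tested in TECs, of which 15 were lower and 6 higher, with a median log2 fold change of -0.26. An unadjusted p below 0.05 was found for 3 of them, where 12.7% of all tested genes had one. Map3k5, the gene of the stress kinase ASK1, had 138, 122 and 126 CPM with glutamine and 46.5, 52.6 and 66.5 CPM with vehicle. The gap between the groups was wider than the range within either, with a log2 fold change of 1.22 (standard error 0.21, unadjusted p = 0.000121, edgeR adjusted p = 0.128). Map2k1, the gene of the ERK kinase MEK1, was separated in the other direction, with 21.5, 20.1 and 25.9 CPM against 35.0, 38.7 and 28.4 CPM (log2 fold change -0.60, edgeR adjusted p = 0.342). Rps6ka5, the gene of the histone kinase MSK1, had 3.12, 1.81 and 10.4 CPM against 1.78, 1.79 and 1.73 CPM (log2 fold change 1.54, edgeR adjusted p = 0.383), so that 1 library carried most of its difference. In PMN 7 of 20 were lower and 13 higher. The 13 include Map2k7, whose direction was fixed by the filter, as given below. Apart from Map2k7, 0 had an unadjusted p below 0.05, where 3.42% of all tested genes had one. Map2k7, which encodes a kinase of JNK, had 11, 114 and 650 counts in the glutamine libraries and 0 counts in the vehicle libraries, so that it passed the filter on low counts through the glutamine group alone, and its test is not given. Of 12 heat shock genes 6 were lower and 6 higher in TECs and 8 lower and 4 higher in PMN, and 0 had an unadjusted p below 0.05 in either by edgeR.

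The genes whose pattern over libraries was most like the mean log2 level of the 10 were named by the same rule in each cell type. Over 6 TEC libraries and 7605 genes these were Emc4 (Pearson's r = 0.995), Rgl1 (0.993), Rac1 (0.991), Chst2 (0.983) and Scpep1 (0.983). Over 6 PMN libraries and 6691 genes they were Khnyn (0.987), Pfkfb4 (0.979), Alkbh3 (0.972), Btg2 (0.972) and Zfp36 (0.972), so that 2 of the 5 were immediate early genes of the other list. These are the highest of 7605 and 6691 values over 6 points, which also share library and treatment, and they are given as a description. The mean log2 level of the 10 genes was 6.70 in TEC glutamine replicate 1 and 7.19 to 7.41 in the other 5 TEC libraries. It was 9.88, 9.90 and 10.1 in the PMN glutamine libraries and 9.63, 9.44 and 9.53 in the PMN vehicle libraries, without overlap. Taken singly, 3 of the 10 genes were separated in PMN. How often the mean of 10 other genes would separate was not tested.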

How the data were processed

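Counts were analysed for 6 TEC and 6 PMN libraries. Per gene symbol, the TEC table that the authors deposited gives raw estimated counts. The deposited PMN table holds the same kind of values after passing through a spreadsheet program, which put extra points into 3.2% of its cells and changed 0.391% of them to dates. Decoding kept only the final point as decimal mark and restored the dates to numbers. Of the 120 PMN cells of the 10 genes, 7 had extra points and 0 were dates. The submitters' processing notes name Trim Galore 0.6.4, Salmon 1.0.0 and the mm10 build. The 2 columns of each PMN library, which correlated at 0.992 to 0.994 against 0.65 to 0.72 between libraries, were averaged as 1 replicate, and 0 columns of per-sample values were left unused.

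Values were rounded to whole counts and tested in R 4.3.3 with edgeR 4.0.16 (TMM scaling, default expression filter, quasi-likelihood test, Benjamini-Hochberg adjustment over all genes tested, threshold 0.05), for each cell type alone and, for the difference between cell types, jointly. CPM were computed on TMM-scaled library sizes. Each standard error was the absolute log2 fold change over the square root of F. Intervals are at 95%. DESeq2 1.42.0, limma 3.58.1, other scalings and filters, and fits without each library were alternatives. All 10 genes were named, and of each other gene list the genes with an unadjusted p below 0.05, at most 6 per cell type, while marker genes were named for their level. Map positions came from GENCODE M21 and promoters from RefSeq, both on GRCm38. Of the listed genes, 1 is not reported here. The genes and lists were chosen with earlier results of these data known.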

Additional observations from a re-analysis of the deposited data

How the results depend on the processing

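In TECs, in PMN and in the difference between them, 0 of the 10 genes had an adjusted p below 0.05 under any alternative run, edgeR, DESeq2 and limma-voom included, and the lowest adjusted p-values were 0.313, 0.558 and 0.179. Over all alternatives the direction held for 129 of 140 gene values in TECs, 165 of 170 in PMN and 168 of 180 for the difference. The cause of a turned direction was not tested, either where a library was left out or elsewhere. Dusp1 in TECs was -0.028 with limma-voom, and with library totals alone, an alternative added after seeing the data that moved the median of all TEC genes to -0.16, Nr4a1 was -0.087 and Dusp1 -0.096. The difference between cell types was 0.024 for Nr4a1 with TMM within each cell type and -0.044 for Ier3 with library totals alone. Leaving out each library in turn, Atf3 ranged from -0.35 to 0.029, Ier2 from -0.32 to 0.016, Nr4a1 from -0.20 to 0.51 and Dusp1 from -0.21 to 0.40 in TECs, and Egr1 from -0.013 to 0.61, Fosb from -0.30 to 0.48, Jun from -0.062 to 0.77 and Nr4a1 from -0.18 to 0.20 in PMN. For the difference, Nr4a1 ranged from -0.33 to 0.39 and Ier3 from -0.15 to 0.22. The number of genes with an unadjusted p below 0.05 ranged over the same fits from 0 to 2 in TECs, 1 to 2 in PMN and 1 to 3 for the difference. All fits pool the spread over genes, also those that leave 2 libraries in a group. No paired analysis was possible because replicate number 3 is the only one common to both TEC groups, and PMN labels carry no replicate numbers. The lowest count of any of the 10 genes in a TEC library was 217.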
